A study of Mus musculus with 3 samples.

Results

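The Hedgehog pathway genes examined here were Dhh, Ptch1, Hhip, Gas1, Smo, Sufu, Gli1, Gli2 and Gli3. An NR2F2 binding peak was taken as a peak of such a gene when the nearest transcription start site (TSS) belonged to it, or when the nearer edge of the peak lay within 100 kb of its TSS. By this rule 23 of the 10069 peaks were found, of which 11 had a Hedgehog gene as the nearest gene and 12 lay inside the window but were closer to the TSS of another gene. NR2F2 (COUP-TFII) is a nuclear receptor of the interstitial cells of the fetal testis, and its antibody was used for chromatin immunoprecipitation and sequencing (ChIP-seq). Testes were dissected free of the mesonephros from CD-1 embryos at E14.5, with no mutant allele and no treatment named in the labels, and were pooled. The data comprised 2 libraries of immunoprecipitated chromatin (ChIP replicates 1 and 2) and 1 input library of chromatin sequenced without immunoprecipitation.

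Hedgehog signaling in the fetal testis runs from the tubules to the interstitium, with Dhh as its ligand gene. In the absence of ligand, the receptor PTCH1 holds the membrane protein SMO inactive. Ligand binding releases SMO, the inhibitor SUFU lets go of the GLI transcription factors, and target genes such as Gli1, Ptch1 and Hhip are switched on. The pathway is known for its requirement in fetal Leydig cell differentiation. Whole testis was used, so the cells in which a site was bound were not resolved, and a larger share of bound cells cannot be told apart from denser binding in each cell. ChIP counts hold no expression of marker genes with which the labelled tissue could be checked.

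The first sequences are, for each gene, that of the peak with the highest mean ChIP count among the peaks nearest to it that did not overlap an untranslated region or non-coding exon. They were read from the GRCm38 (mm10) assembly on the plus strand. Capitals mark the hexamers AGGTCA and GGGTCA, the core to which NR2F2 and related receptors bind, or their reverse complements TGACCT and TGACCC. The last sequence belongs to the window of Gli1 and is shown because it was the only 1 of the 23 peaks that held the longer motif AGAGGTCA or AGGGGTCA, here as its reverse complement.
Ptch1 peak, chr13:63567813-63568112: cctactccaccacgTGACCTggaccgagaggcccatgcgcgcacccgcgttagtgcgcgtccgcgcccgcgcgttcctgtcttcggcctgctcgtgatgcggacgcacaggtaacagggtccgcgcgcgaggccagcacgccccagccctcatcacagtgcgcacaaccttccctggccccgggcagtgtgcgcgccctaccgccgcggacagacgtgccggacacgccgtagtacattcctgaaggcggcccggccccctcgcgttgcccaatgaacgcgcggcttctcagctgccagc
Gli1 peak, chr10:127340693-127340992: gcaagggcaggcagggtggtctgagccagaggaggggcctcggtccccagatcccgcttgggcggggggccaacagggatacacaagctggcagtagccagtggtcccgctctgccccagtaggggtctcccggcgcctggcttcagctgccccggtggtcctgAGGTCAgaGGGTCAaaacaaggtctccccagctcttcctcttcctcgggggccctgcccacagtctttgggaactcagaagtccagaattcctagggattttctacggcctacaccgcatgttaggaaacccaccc
Gli2 peak, chr1:119033395-119033694: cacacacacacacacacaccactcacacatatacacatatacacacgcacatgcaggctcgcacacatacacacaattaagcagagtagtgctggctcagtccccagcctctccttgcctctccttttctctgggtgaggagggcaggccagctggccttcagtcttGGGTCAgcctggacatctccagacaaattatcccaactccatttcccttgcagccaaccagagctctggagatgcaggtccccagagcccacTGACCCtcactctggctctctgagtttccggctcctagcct
Gli3 peak, chr13:15052871-15053170: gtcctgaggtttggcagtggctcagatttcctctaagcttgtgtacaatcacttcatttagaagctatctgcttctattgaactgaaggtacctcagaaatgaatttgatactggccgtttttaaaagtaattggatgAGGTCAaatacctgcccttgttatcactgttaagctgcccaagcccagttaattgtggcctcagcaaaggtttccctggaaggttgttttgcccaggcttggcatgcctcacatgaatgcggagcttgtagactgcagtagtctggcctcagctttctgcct
Peak upstream of Mbd6, chr10:127289298-127289597: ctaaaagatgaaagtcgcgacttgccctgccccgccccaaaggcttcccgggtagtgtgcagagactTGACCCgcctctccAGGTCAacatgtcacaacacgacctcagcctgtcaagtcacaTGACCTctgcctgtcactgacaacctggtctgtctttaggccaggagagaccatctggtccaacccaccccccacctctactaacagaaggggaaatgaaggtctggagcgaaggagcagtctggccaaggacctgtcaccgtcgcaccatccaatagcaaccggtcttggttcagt

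The Ptch1 peak had 1 hexamer, close to its left edge. The Gli1 peak had 2 on the same strand, 2 bases apart, near the middle of the peak. Such a pair, 2 copies of AGGTCA or GGGTCA on 1 strand with 2 bases between them, was present in 65 of 10069 peaks (0.646%). This spacing was looked for after the sequence had been seen. The Gli2 peak shown, which had the highest mean among the 3 nearest to Gli2, had 2 hexamers of the GGGTCA form on opposite strands, and its left part was a CA repeat, with 34.3% of its bases masked as repeats in the assembly. The distal Gli3 peak had 1 hexamer near its middle, and the peak near Mbd6 had 3.

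Each peak was 300 bp wide. Summed over the peaks, the input had 73251 counts, and ChIP replicates 1 and 2 had 426784 and 364261. Sequencing depths were not used here, so a ratio of ChIP to input is known only up to a common factor. Enrichment was therefore also measured as the log2 ratio relative to the typical peak, in which the libraries were scaled on the peaks themselves and 0 stands for the ratio of an average peak. It was tested with the quasi-likelihood test of edgeR over all 10069 peaks. The peaks had been called by the authors on the merged ChIP reads, so that a high ChIP count is part of how they were selected. The methods do not say whether the input was used in the calling.

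**Figure D1:**
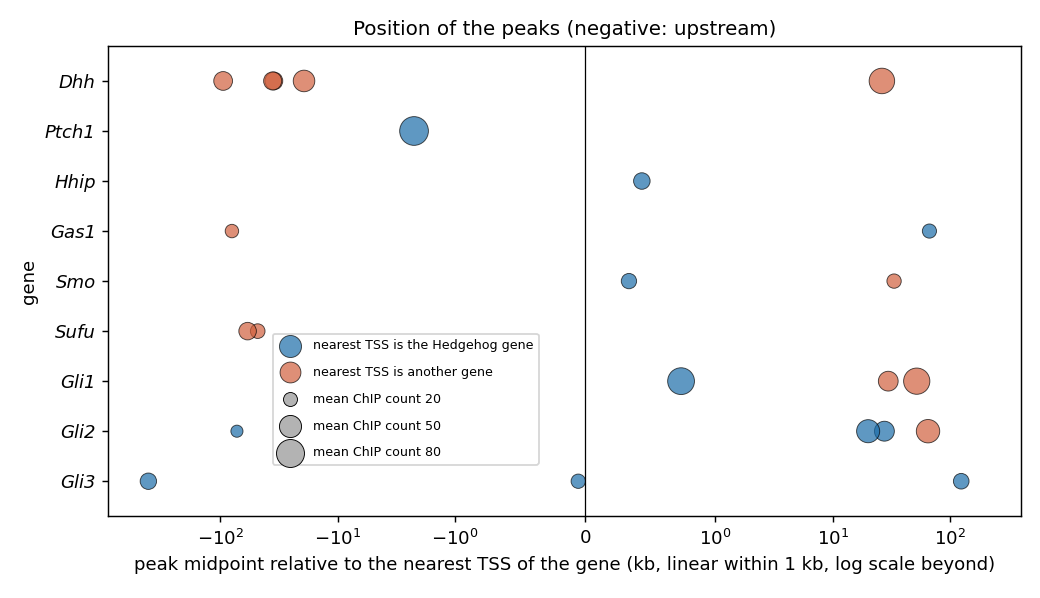
Position of the midpoints of the 23 peaks relative to the nearest TSS of each Hedgehog gene, in kb along the gene (negative values lie upstream). The axis is linear within 1 kb and logarithmic beyond, and the area of a circle follows the mean count of the ChIP replicates. Peaks of Gli1, Smo, Hhip and Gli3 lay within 1 kb of the TSS, whereas Dhh and Sufu had only peaks that were nearer to other genes.

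Among the 9 genes, 7 were the nearest gene of at least 1 peak and Dhh and Sufu were not. Over all 26180 genes with a curated RefSeq TSS the share was 30.3%, and over 21000 protein-coding genes it was 32.7%. Gli2 and Gli3 each were nearest to 3 peaks, a number reached or exceeded by 399 of all genes (1.52%). Many genes tied at 3 peaks, and those whose median ChIP count was closest to that of Gli2 were Gm16214, Hic1, Mapk14, Tatdn2 and 2310008N11Rik. Every one of the 9 genes had a peak within 100 kb, as did 68.6% of all genes. Dhh had 5 peaks in its window, although none was nearest to it, and 1732 of all genes (6.62%) had 5 or more. Gene length and the number of neighboring genes were not adjusted for.

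Peaks were then described gene by gene, starting with the ligand. Dhh (gene identifier 13363, chromosome 15, 98891155 to 98898540) encodes Desert hedgehog, which Sertoli cells secrete. No peak was nearest to Dhh, and the closest one lay 19176 bp away. Its window held 8 other genes and 5 peaks, all of them closer to another TSS. A peak 884 bp upstream of Kmt2d (381022, chr15:98872089-98872388), a histone methyltransferase gene, had 9 input counts and 68 and 65 ChIP counts. This was the strongest peak of the window by its summed ChIP count and ranked 904th among all peaks, and its log2 ratio was 0.57 ± 0.49 (SE). At Lmbr1l (74775, chr15:98917716-98918015), a peak 83 bp downstream of the TSS and centered on a coding exon had 10 input counts and 52 and 43 ChIP counts.

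The next peaks of the Dhh window belonged to Tuba1b (22143), which encodes an alpha tubulin. A peak over its TSS (chr15:98934162-98934461) had 7 input counts and 30 and 37 ChIP counts. A second peak in its first intron, 739 bp from the TSS (chr15:98933352-98933651), had 3 input counts and 34 and 31 ChIP counts. The ChIP counts of the 2 Tuba1b peaks were thus close to each other and the input counts differed, which gave raw ChIP to input ratios of 4.07 and 5 over the TSS and of 9.86 and 9 in the intron. Neither passed the test against the typical peak (edgeR adjusted p = 0.992 and 0.694). The last peak of the window lay outside any gene, 7025 bp from the TSS of 4930578M01Rik (75951, chr15:98992990-98993289). With 15 counts it had the highest input of the 23 peaks, beside 38 and 34 ChIP counts.

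Ptch1 (19206, chromosome 13, 63508328 to 63573460) encodes the receptor of DHH and is itself a target gene of the pathway. It had 1 peak (chr13:63567813-63568112), with 4 input counts, 88 counts in ChIP replicate 1 and 81 in replicate 2. These were the highest counts of the 23 peaks in both ChIP libraries, and both lay far above the input. The mean ChIP count of 84.5 ± 4.95 (SD, n = 2) ranked 390th of 10069 peaks. Ptch1 has 2 annotated start sites, and the peak lay between them, 2078 bp upstream of the TSS of the shorter transcript and 5348 bp downstream of that of the longer one, in its first intron. No other gene started within 100 kb of Ptch1.

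The Ptch1 peak was the only 1 of the 23 peaks above the typical peak at an adjusted p under 0.05, with a log2 ratio of 2.08 ± 0.59 (SE, edgeR adjusted p = 0.0334). Among all peaks 1.53% were above by this test. Refitted with a single ChIP library and the input, the log2 ratio was 2.12 without replicate 1 and 2.02 without replicate 2, and both values rest on the same input count. This count of 4 has an exact 95% Poisson interval of 1.09 to 10.2, which covers counting error only. The call was lost when size factors of DESeq2 were used in edgeR (log2 ratio 2.05, edgeR adjusted p = 0.220) and when the factors of the trimmed mean of M values (TMM) were left out (1.96, edgeR adjusted p = 0.0730).

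Hhip (15245, chromosome 8, 79965851 to 80058008) encodes a membrane protein that binds Hedgehog ligands and limits the signal, and it is also a known target gene. Its single peak (chr8:80057423-80057722) lay 286 bp downstream of the TSS, centered on the 5' UTR. The counts were 9 in the input, 22 in ChIP replicate 1 and 34 in replicate 2. Here replicate 2 was higher, although its total was the lower one. Unlike Ptch1, Hhip had a log2 ratio below 0 (-0.67 ± 0.57, SE), which did not pass the test (edgeR adjusted p = 0.793).

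Gas1 (14451, chromosome 13, 60174405 to 60177535) encodes a coreceptor of Hedgehog ligands. Both of its peaks were distal. The one with Gas1 as nearest gene lay 66740 bp downstream, in an exon of the non-coding gene A530065N20Rik (chr13:60110496-60110795). It had 4 input counts and 22 and 19 ChIP counts. The other lay 79463 bp upstream of Gas1, outside any gene and nearer to Gm5084 (100503759, chr13:60256998-60257297), with 6 input counts and 21 and 16 ChIP counts. By summed ChIP count these ranked 8541st and 9034th of all peaks, and their log2 ratios were 0.04 ± 0.79 and -0.69 ± 0.72 (SE).

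Smo (319757, chromosome 6, 29735497 to 29761366) encodes the membrane protein that carries the signal inward once PTCH1 is occupied. A peak centered on its 5' UTR, 187 bp from the TSS (chr6:29735684-29735983), had 4 input counts and 20 and 28 ChIP counts. The second peak of its window, 33257 bp downstream, lay in a coding exon of Ahcyl2 close to the TSS of that gene (74340, chr6:29768754-29769053). It had 4 input counts and 21 ChIP counts in each replicate. Both log2 ratios were close to 0 relative to the typical peak (0.27 ± 0.76 at Smo and 0.08 ± 0.79 at Ahcyl2, SE).

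Sufu (24069, chromosome 19, 46396896 to 46488804) encodes the cytoplasmic inhibitor of the GLI proteins. It was nearest to no peak. The 2 peaks of its window lay 47847 and 58356 bp upstream, in a neighborhood of 9 other genes. The closer one covered the TSS of the non-coding gene 2310034G01Rik (75579, chr19:46348750-46349049), with 3 input counts and 25 and 19 ChIP counts. The farther one was centered on the 5' UTR of Cuedc2 (67116, chr19:46338241-46338540), with 9 input counts and 40 and 23 ChIP counts. The log2 ratios were 0.55 ± 0.85 and -0.51 ± 0.56 (SE), and the replicates at Cuedc2 did not differ beyond counting error (exact binomial p = 0.132).

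**Figure D2:**
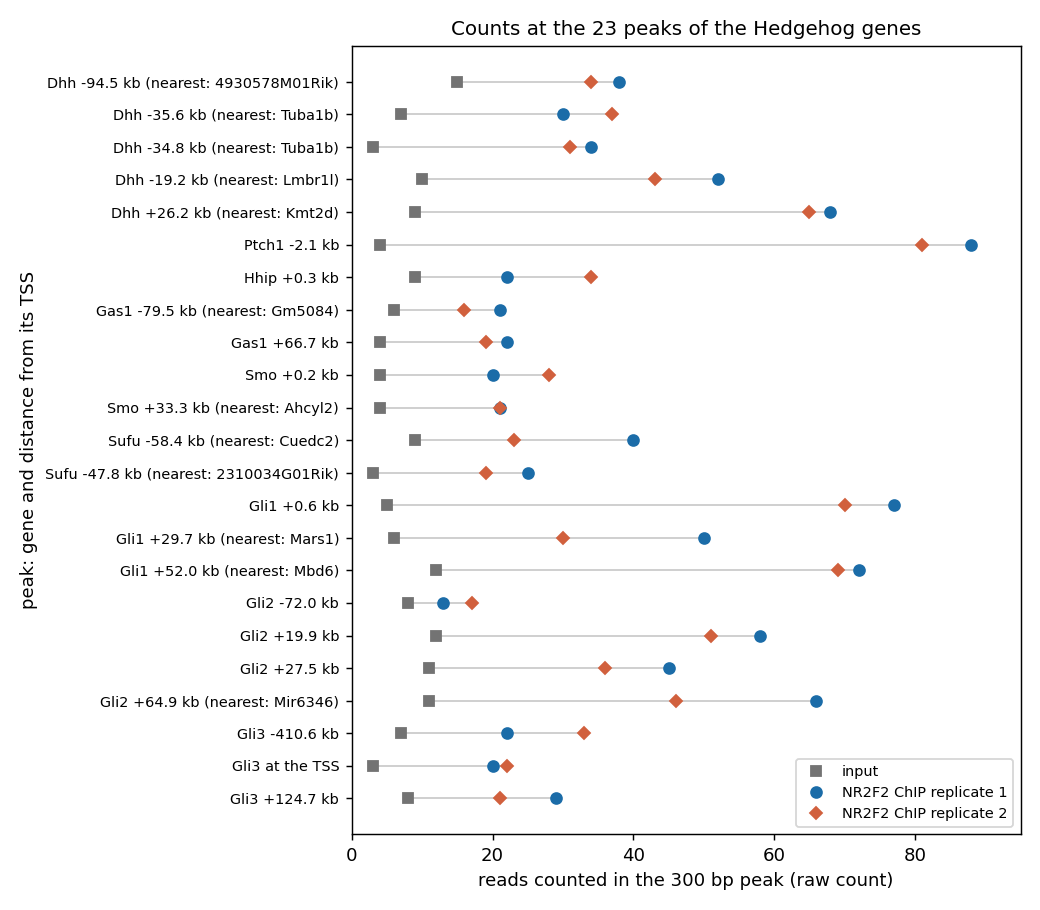
Raw counts of reads in each of the 23 peaks for the input (squares), ChIP replicate 1 (circles) and ChIP replicate 2 (diamonds). Peaks are named by gene and by the distance of the nearer edge from its TSS in kb, with the nearest gene where that is another one. The Ptch1 peak reached 88 and 81 counts and the Gli1 peak 77 and 70, whereas the upstream Gli2 peak had 13 and 17.

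The GLI transcription factors are the effectors of the pathway. Gli1 (14632, chromosome 10, 127329882 to 127341579) encodes an activator and is a direct target of the signal. Its own peak lay in intron 2, 587 bp from the TSS (chr10:127340693-127340992), and had 5 input counts and 77 and 70 ChIP counts. The mean ChIP count of 73.5 ± 4.95 (SD, n = 2) ranked 638th of all peaks, second to Ptch1 among the 23. The log2 ratio was 1.55 ± 0.57 (SE), with an unadjusted edgeR p of 0.00669 that did not pass after adjustment over all peaks (edgeR adjusted p = 0.186).

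In the window of Gli1, which held 9 other genes, 2 further peaks lay at the start of other genes. The peak 280 bp upstream of Mbd6 (110962, chr10:127289298-127289597) had 12 input counts and 72 and 69 ChIP counts. Its ChIP counts were close to those of the Gli1 peak, but the input was higher, and its log2 ratio was 0.24 ± 0.45 (SE). The peak over the TSS of Mars1 (216443, chr10:127311625-127311924), which encodes a methionyl-tRNA synthetase, had 6 input counts and 50 and 30 ChIP counts.

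Gli2 (14633, chromosome 1, 118834061 to 119053619) encodes the main activator of the pathway and was the longest gene after Gli3, at 219.6 kb. No peak lay at its TSS. The closest, 19925 bp downstream in intron 1 (chr1:119033395-119033694), had 12 input counts and 58 and 51 ChIP counts. A second peak in the same intron, 27483 bp from the TSS (chr1:119025837-119026136), had 11 input counts and 45 and 36 ChIP counts. Another lay in intron 2, 64921 bp from the TSS (chr1:118988399-118988698), and was assigned to the window because the TSS of the microRNA gene Mir6346 (102465176) was nearer. It had 11 input counts and 66 and 46 ChIP counts, the highest mean at Gli2 (56 ± 14.1, SD, n = 2).

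These 3 intronic Gli2 peaks had high ChIP counts and also high input counts, so that their log2 ratios lay near that of the typical peak, from -0.44 ± 0.51 to 0.03 ± 0.48 (SE). The fourth Gli2 peak, 72002 bp upstream and outside any gene (chr1:119125621-119125920), was the weakest of the 23. It had 8 input counts and 13 and 17 ChIP counts, a log2 ratio of -1.40 ± 0.69 (SE) and an unadjusted edgeR p of 0.0436, which did not pass the adjustment (edgeR adjusted p = 0.459).

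Gli3 (14634, chromosome 13, 15463723 to 15730026) encodes the GLI protein best known as a repressor. Unlike Gli2, it had a peak over its TSS (chr13:15463521-15463820), with 3 input counts and 20 and 22 ChIP counts. An intronic peak 124741 bp downstream, in intron 3 (chr13:15588464-15588763), had 8 input counts and 29 and 21 ChIP counts. The third peak lay 410553 bp upstream and outside any gene (chr13:15052871-15053170), with 7 input counts and 22 and 33 ChIP counts. By summed ChIP count the distal, intronic and TSS peaks ranked 6669th, 7379th and 8426th. The log2 ratio was highest at the TSS (0.49 ± 0.86, SE), with -0.33 ± 0.62 at the distal and -0.67 ± 0.61 at the intronic peak, and the errors of the 3 overlapped.

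**Figure D3:**
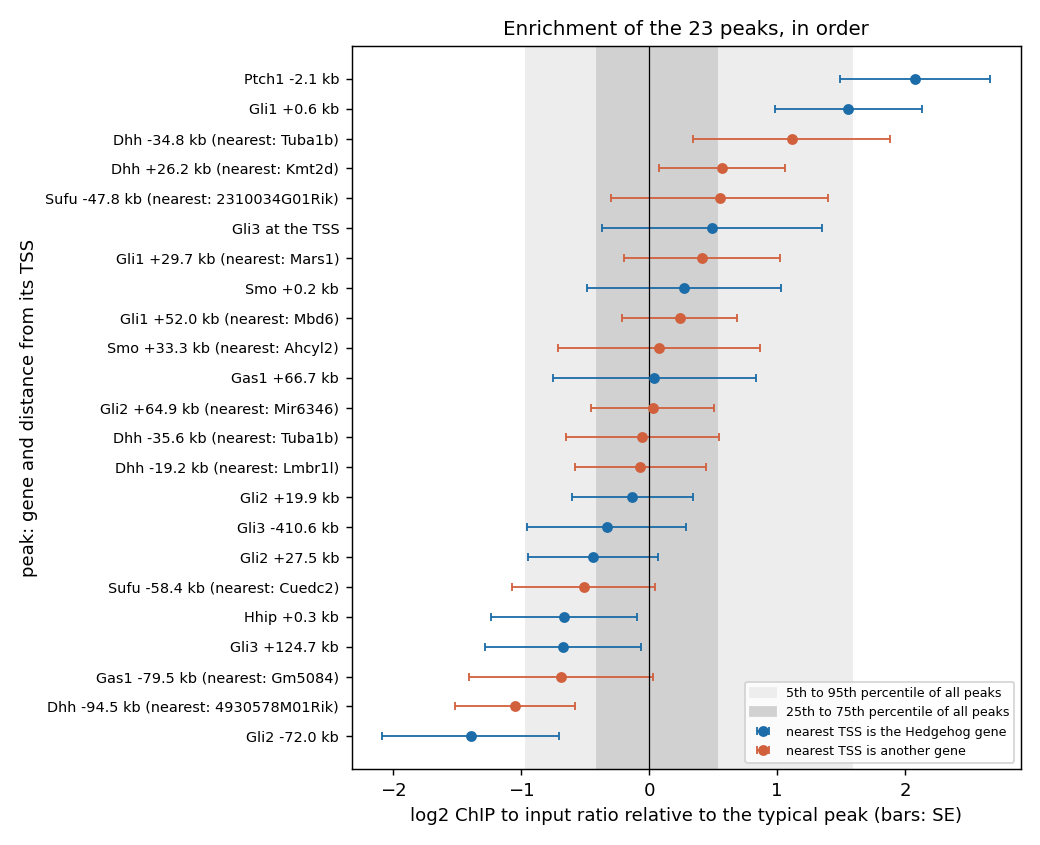
Log2 ratio of ChIP to input for the 23 peaks, relative to the typical peak, with bars of 1 SE, ordered by value. The darker band spans the middle of all peaks (25th to 75th percentile) and the lighter band the 5th to 95th percentile. Ptch1 (2.08) and Gli1 (1.55) were highest and the upstream Gli2 peak (-1.40) lowest, and most bars overlap 0.

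With the 23 peaks ordered by log2 ratio, none of the 22 neighboring pairs lay apart by more than their combined SE. Sorting by value keeps neighbors close, so this does not show that the peaks form a continuous series. The widest step was 0.54, between the intronic Tuba1b peak and the Kmt2d peak, with a combined SE of 0.92. The values ranged from -1.40 to 2.08, with a median of 0.03 against 0.02 over all peaks. Besides the call at Ptch1, 0 peaks were below the typical peak at an adjusted p under 0.05 in edgeR, against 0.0497% of all peaks. At an unadjusted edgeR p under 0.05, 2 of the 23 were above (Ptch1 and Gli1) and 2 below (the upstream Gli2 peak and the 4930578M01Rik peak), against 7.89% and 2.55% of all peaks. The number above was thus near the background. DESeq2 called 0 in either direction, but gave an adjusted p at only 1 of the 23 peaks.

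When equal library sizes were assumed, the edgeR test placed 18 of the 23 peaks above input (78.3%), against 80.7% of all peaks. The share was thus near the background. The 5 peaks without a call were those at Hhip and Cuedc2, the upstream Gli2 peak, and the distal and intronic Gli3 peaks. By nearest gene, 7 of 11 peaks of the Hedgehog genes and 11 of 12 peaks nearer to other genes passed. In counts, both ChIP replicates exceeded the input at all 23 peaks, as they did at 10059 of all peaks. At equal depth the log2 ratio was 4.36 ± 0.34 (SE) at Ptch1, 3.84 ± 0.34 at Gli1 and 0.90 ± 0.35 at the upstream Gli2 peak. These SEs were larger in other fits of the same counts. In the same order they were 0.62, 0.60 and 0.61 in a robust edgeR fit and 0.96, 0.92 and 1.15 in DESeq2. If the ChIP libraries were 2 times as deep as the input, 0 of the 23 peaks and 0 of all peaks were called by edgeR, with 10 of the 23 at an unadjusted p under 0.05, against 39% of all peaks. If they were 2 times shallower, 23 of the 23 peaks and 97.9% of all peaks were called. These calls carry no independent evidence of binding, because the peaks were selected on the same reads.

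The median ratio of raw ChIP to input counts over the 23 peaks was 4.78 and 4.47 in the ChIP replicates (mean 4.62 ± 0.220, SD, n = 2). Over all peaks it was 4.75 ± 0.505. The 11 peaks nearest to a Hedgehog gene had 4.44 ± 0.157 and the 12 others 5.06 ± 0.464. By summed ChIP count, 4 of the 23 peaks were in the top 10% of all peaks, namely those at Ptch1, Gli1, Mbd6 and Kmt2d, and 2 were in the lowest 10%, namely the upstream Gli2 peak and the upstream Gas1 peak. These shares were not tested, since the genes were chosen with earlier results known.

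**Figure D4:**
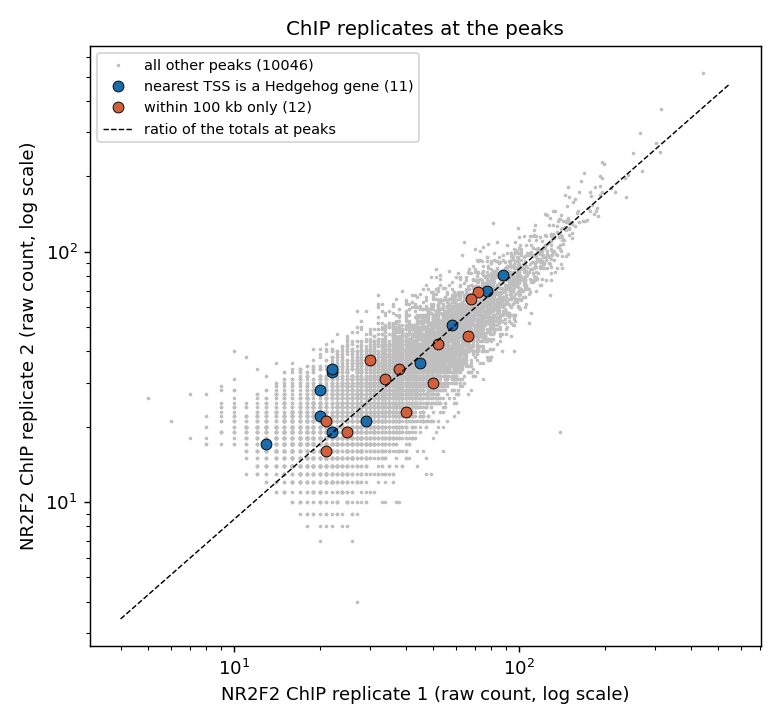
Raw counts of the 2 ChIP replicates at each peak, on log scales, with the 11 peaks nearest to a Hedgehog gene and the 12 other peaks of their windows over all other peaks. The dashed line is the ratio of the totals at peaks. The 23 peaks lay within the range of the other peaks, and those with an unadjusted exact binomial p under 0.05 were Hhip (22 and 34) and the distal Gli3 peak (22 and 33).

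The ChIP replicates were compared at each peak with an exact two-sided binomial test, which compares 2 libraries and not conditions. After adjustment, 0 of the 23 peaks differed, against 0.0993% of all peaks, and the smallest adjusted p was 0.508 (exact binomial). Without adjustment 2 of the 23 had an exact binomial p under 0.05, Hhip (0.0316) and the distal Gli3 peak (0.0424), both higher in replicate 2. Over all peaks the share was 8.83%. A p above the threshold does not show that the replicates were equal.

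Of the 11 peaks nearest to a Hedgehog gene, 4 lay within 1 kb of its TSS (Gli3, Smo, Hhip and Gli1) and 6 lay more than 10 kb away. Of the 12 other peaks, 9 lay within 1 kb of the TSS of the gene they were nearest to. Among all peaks with a nearest TSS, 58.0% lay within 1 kb of the nearest TSS and 32.9% more than 10 kb away. Distance to a TSS was part of how the peaks were chosen, so these counts are a description. By the classes used in the study, 6 peaks were TSS proximal (26.1%, against 36.0% of all peaks), 1 was upstream, 10 were in gene bodies (43.5%, against 33.9%) and 6 were intergenic. The intergenic class held the peak inside intron 2 of Gli2, classed by its distance to Mir6346. It also held the peak in an exon of A530065N20Rik, classed by its distance to Gas1. The TSS proximal class took in only peaks over a TSS or upstream of it. The Smo, Hhip and Gli1 peaks, which lay just downstream, therefore counted as gene body. The median GC content was 60.7% for the 23 peaks and 60.7% for all peaks.

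Motifs were searched on both strands of each peak. AGGTCA was present in 7 of the 23 peaks (30.4%) and in 37.6% of all peaks. It was found at Ptch1, Gli1, Mbd6, the upstream and the second intronic Gli2 peaks, and the distal and intronic Gli3 peaks. Among the 11 peaks nearest to a Hedgehog gene 6 held it, and among the 12 others 1 did. With GGGTCA counted as well, 10 of the 23 peaks (43.5%) and 58.9% of all peaks had a match. The longer form AGAGGTCA or AGGGGTCA, which contains some of the GGGTCA and AGGTCA matches, was in 1 of 23 peaks and in 10.5% of all. No peak held 2 hexamers on 1 strand with 1 base between them (2.37% of all peaks), and no peak held the GLI consensus GACCACCCA (0.556% of all). A match is a run of letters and not a shown site, and the absence of a match says only that these letters were not in the 300 bp.

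The other genes of the pathway were read from a list of 38 genes, grouped by role. At least 1 peak was nearest to 21 of them (55.3%, against 30.3% of all genes and 32.7% of protein-coding genes), with 27 peaks in all. Of these 27 peaks 22 were above input at equal depth (81.5%, against 80.7% of all), and 0 were above or below the typical peak in edgeR after adjustment, with 0 above and 1 below at an unadjusted p under 0.05, against the same 7.89% and 2.55% of all peaks. The 1 below, named after its values were seen, lay in an intron of Spop and had 10 input counts and 19 and 17 ChIP counts. The genes that control GLI proteins by phosphorylation, transport or degradation had the most, with 8 of 9 genes nearest to a peak. Most of these peaks lay near a TSS. Dyrk2, a kinase gene, had the strongest, with 7 input counts and 63 and 40 ChIP counts, 650 bp upstream. Stk36 was the only gene of this group without a nearest peak.

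Among genes for release and spread of the ligand, 3 of 8 had a nearest peak. The strongest lay in an intron of Scube1, 58099 bp from its TSS, with 9 input counts and 70 and 54 ChIP counts. Hhat, whose product attaches palmitate to Hedgehog ligands, had 2 peaks, and the ligand gene Shh had 1. Reception was represented by Gpc3, a glypican gene, with 3 peaks, and Boc, a coreceptor gene, with 1. The strongest of these, 78 bp upstream of Gpc3, had 4 input counts and 28 and 18 ChIP counts.

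Of the genes for signaling from SMO, 4 of 9 had a nearest peak (Prkaca, Arrb2, Gnas and Evc2). Prkaca, the catalytic subunit of protein kinase A, had 7 input counts and 40 and 32 ChIP counts 496 bp upstream, and Arrb2 had the same mean ChIP count of 36 with 5 input counts. Of genes often raised by the pathway, Mycn, Ccnd1, Bcl2 and Osr1 had a nearest peak and Foxf1, Foxf2 and Osr2 had none. A site 53417 bp upstream of Mycn had the highest counts of the 27, with 20 input counts and 131 and 101 ChIP counts. Its input was also the highest, and the log2 ratio, 0.22 ± 0.34 (SE), did not pass the test (adjusted p = 0.919 in edgeR).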

How the data were processed

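NR2F2 ChIP-seq of E14.5 mouse testis was analysed from the deposited raw counts of reads per peak. Per the labels and the methods, the authors trimmed reads with Trim Galore 0.6.7, mapped them to mm10 with Bowtie2, removed duplicates with Picard 1.110, called peaks on the merged ChIP replicates with HOMER 4.11.1 and resized them to 300 bp. The submitters' processing notes also list bedtools, with no role. How reads were assigned to peaks was not given in the sources used here. Removing duplicates caps the count of a narrow peak. The deposited counts cover peaks only.

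Groups came from the sample titles. Peaks were annotated with 45756 curated RefSeq transcripts of GRCm38 (the assembly of mm10), and distances ran from the nearer edge of the peak. All peaks were fitted with edgeR 4.0.16 (quasi-likelihood test, R 4.3.3, Benjamini-Hochberg threshold 0.05), with TMM factors for the comparison with the typical peak and equal library sizes for the comparison with input. The single input was assumed to vary like the ChIP libraries. SE came from the log2 ratio and its F statistic. For raw ratios, 0.5 was added to every count. DESeq2 1.42.0, other scalings, a minimum of 10 input counts and other windows were tried. The fits were tested on simulated counts. Every peak of the 9 genes is described. The members, gene lists and motifs were chosen with earlier results of these data known. The methods describe the ChIP libraries as biological replicates from independent experiments on pooled testes. The edgeR p-values rest on the spread between these 2 libraries with variance information shared over all peaks, and not on the spread at a single peak alone. The exact binomial p-values hold counting error only.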

Additional observations from a re-analysis of the deposited data

How the results depend on the processing

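No paired analysis was possible because the label of the input gives no replicate number. Of the 23 peaks, 18 were above input at equal depth. The number was 0 with the ChIP libraries 2 times deeper and 6 with at least 10 input counts, where only 6 peaks were tested, and it ranged from 13 (DESeq2, 59.6% of all peaks) to 23 (ChIP libraries 2 times shallower) under the other settings, with 22 in a robust fit that placed 97.5% of all peaks above input. The 1 peak above the typical peak, at Ptch1, became 0 with DESeq2 size factors, without TMM, with DESeq2 and with at least 10 input counts, where the 4 input counts of Ptch1 took it out of the test. DESeq2 gave Ptch1 an unadjusted p of 0.0269 and no adjusted p. The cause of the other losses was not tested. Leaving out TMM shifted the median of all peaks by -0.11 (log2), and 9 rather than 12 of the 23 peaks had a value above 0. By nearest TSS only, 11 peaks remained by construction, whereas a window of 50 kb gave 18 and all RefSeq transcripts gave 22. With all RefSeq transcripts, 8 rather than 11 peaks had a Hedgehog gene as the nearest gene. The median ratio of 4.62 fell to 3.15 with 5 added to each count and was 4.47 to 4.78 when 1 ChIP replicate was left out. Refitting with 1 ChIP library used the dispersions of all 3. The joint log2 ratio lay between the 2 single-library values, so their spread cannot judge the shift. At Hhip the log2 ratio of -0.67 became -0.29 without replicate 1 and -1.13 without replicate 2. At the peak of Smo itself 0.27 became 0.59 and -0.11, and at the distal Gli3 peak -0.33 became 0.03 and -0.77. The shift was small at the downstream Gas1 peak, where 0.04 became 0.04 and 0.03. With 2 bases between the hexamers in place of 1, the number of peaks with a pair was 1 in place of 0. The input, with a median of 7 counts per peak, limits the precision of every ratio.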
